A study of Homo sapiens with 4 samples.

Results

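The cells described here are human embryonic stem cells gated for transcripts of G2 and mitosis. A cell was eligible with at least 2000 unique molecular identifiers (UMIs, tags that let copies of 1 molecule be counted once) and at least 2% of them from mitochondrially encoded genes. It passed the gate when 5 or more of 8 genes had a UMI, namely MKI67, TOP2A, CENPF, UBE2C, TPX2, CDK1, BIRC5 and NUSAP1. The gate took 2310 of 3998 eligible stem cells, 1011 of 1820 in the sample hESC 1 and 1299 of 2178 in hESC 2. They were set against 297 marker-low cells (147 and 150), which met the same limits with at most 1 of the 8 genes, and against 1391 intermediate cells (662 and 729) with 2 to 4 of them. The members were thus chosen by the measured UMIs of these 8 genes, whose values are given as a description and were not tested.

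KhES1, the line behind all 4 samples, is an established line of human embryonic stem cells. In the 2 hESC samples the line grew in mTeSR-1 on Matrigel-coated dishes, was dissociated with TrypLE Express, and had received the ROCK inhibitor Y27632 on day 1 of culture only. The 2 blastoid samples, used here for comparison only, came from aggregates of the same line placed in a hydrogel and then kept in iBlastoid medium. Sample titles give day 0 for all 4 samples while the names of the blastoid tables carry a later day, so each group here follows the description given with its sample. No label says whether the samples of a group were separate cultures. The p-values come from UMIs summed by class within each sample and use a spread that is estimated partly across genes. They reflect only in part how far a gene's own difference between classes varied from sample to sample, and this variation may be technical.

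After DNA replication in S phase a cell passes through G2, in which cyclin-dependent kinase bound to B-type cyclins becomes active, and enters mitosis. In mitosis, motors and bundling proteins build a spindle from tubulin, kinetochores attach the condensed chromosomes to it, and the anaphase promoting complex then destroys cyclins and securin so that sister chromatids part. Many of the messengers for this machinery accumulate late in the cycle through promoter elements called CDE and CHR, whereas core histone messengers are made in S phase and lost when replication ends. Primed human pluripotent stem cells are known for a short G1 and a large share of cells in S and G2.

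The 2 hESC tables held 13516 of the 19074 barcodes of the series, with 14930662 and 17716886 UMIs. No barcode had more than 4994 genes, and 34 and 31 gated cells, but no marker-low cell, had over 4500 genes, close to that upper bound. The 2 hESC tables shared 1317 barcodes, and 1044 gated cells of hESC 2 had such a barcode against 3 of hESC 1, although the barcode belonged to a gated cell in both tables only 1 time. Results are therefore also given without all shared barcodes, which leaves 870 eligible cells in hESC 2. A doublet caller marked 27 of 5440 checked hESC barcodes (0.496%), all in hESC 1, and 19 of them were gated cells. At so low a rate its calls were not relied on, no doublets were removed, and their number among the gated cells is unknown.

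The gate was broad. It held 55.5% of the eligible cells of hESC 1 (exact Clopper-Pearson 95% interval 53.2% to 57.8%, counting error only) and 59.6% of those of hESC 2 (57.5% to 61.7%). Of the 8 genes, CENPF, a kinetochore protein that accumulates in G2, was found in 97.6% and 98.3% of the gated cells, and TOP2A, the topoisomerase that untangles sister chromatids, in 96.3% and 95.4%. CDK1, the mitotic kinase, was the least often found, in 64.5% and 63.0%. All 8 genes were found together in 289 and 333 cells, which was 15.9% and 15.3% of the eligible cells. Just inside the threshold were 234 and 306 cells with 5 genes, in which TOP2A stood at 357 and 375 CPM (UMIs scaled to a library total of 1000000). Just outside were 250 and 289 cells with 4 genes, in which it stood at 284 and 299 CPM, so no gap separated the gated from the intermediate cells.

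Depth was greater in cells with more gate genes. The median gated cell had 8127 UMIs in hESC 1 and 7304 in hESC 2, and the median marker-low cell had 4227 and 4028.5, a ratio of 1.92 and 1.81. The intermediate cells lay between, at 5351.5 and 5195. The mitochondrial share was 11.6% and 11.5% in the median gated cell against 11.0% and 10.8% in the median marker-low cell. A deeper cell shows more genes, so the gate itself favours deep cells. The gate was read again on 2000 UMIs drawn at random from each cell, and 254 cells of hESC 1 (14.0%) and 333 of hESC 2 (15.3%) passed. A draw can only lose genes, so all of these cells had to lie within the full-depth gate, where they made up 25.1% and 25.6%. Their median full depth was 1.51 and 1.50 times that of cells with at most 1 gate gene at 2000 UMIs. In blastoids the full-depth gate took 47.7% and 46.6% of eligible cells, with depth ratios of 1.59 and 1.51. Without shared barcodes, 29.3% of the remaining hESC 2 cells were gated and the depth ratio was 1.23, against 55.6% and 1.93 in hESC 1.

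**Figure D1:**
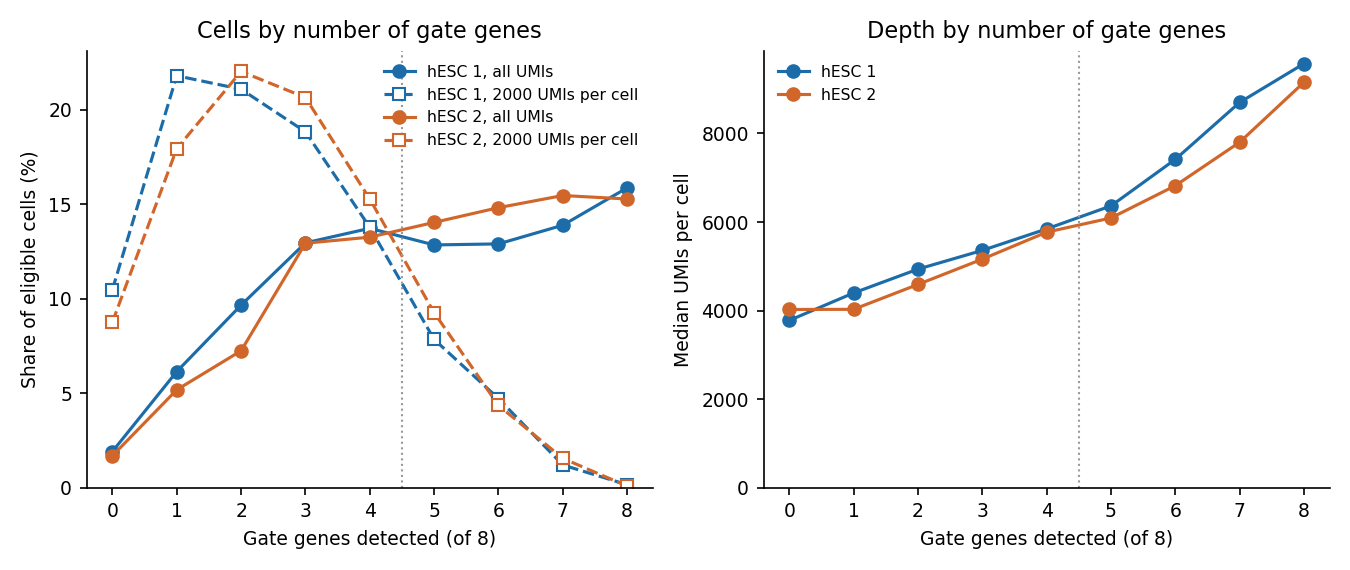
Left, the share of eligible cells (%) by the number of the 8 gate genes detected, with all UMIs (filled, solid) and after thinning to 2000 UMIs per cell (open, dashed), in hESC 1 and hESC 2; right, the median UMIs per cell by the same number, and the dotted line marks the gate at 5 genes. At full depth 289 and 333 cells held all 8 genes, after thinning the most frequent numbers were 1 gene in hESC 1 and 2 in hESC 2, and the median depth rose from 3780 and 4027 UMIs at 0 genes to 9578 and 9157 at 8.

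The label of G2 and mitosis held for the G2/M genes, but the gate also took cells with abundant S-phase transcripts. The 4 lists of G2/M genes hold 103 genes, none of them a gate gene, and their summed level was higher at each further gate gene. In hESC 1 it was 3779.4 CPM at 0 gate genes, 6038.0 at 4, 7004.8 at 5 and 11154.0 at 8, and in hESC 2 it was 3514.2, 6276.0, 7039.6 and 10732.3. CCNB1, the B-type cyclin that drives entry into mitosis, was at 46.7, 144 and 291 CPM in hESC 1 cells with 0, 5 and 8 gate genes, and at 33.9, 148 and 296 CPM in hESC 2. The summed level of 31 replication-dependent histone genes ran otherwise: it was 1042 CPM at 0 gate genes, 4646 at 5 and 2400 at 8 in hESC 1, and 834, 3326 and 1779 in hESC 2. Histone transcripts were thus most abundant near the threshold, and the list of 44 replication genes stood at its highest just outside it, at 3375 and 3918 CPM with 4 gate genes against 2574 and 2910 with 8. For this reason the set is called gated cells here and not mitotic cells. These levels are sums over all eligible cells of unequal depth, and the genes share cells with the gate, so they carry no test.

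**Figure D2:**
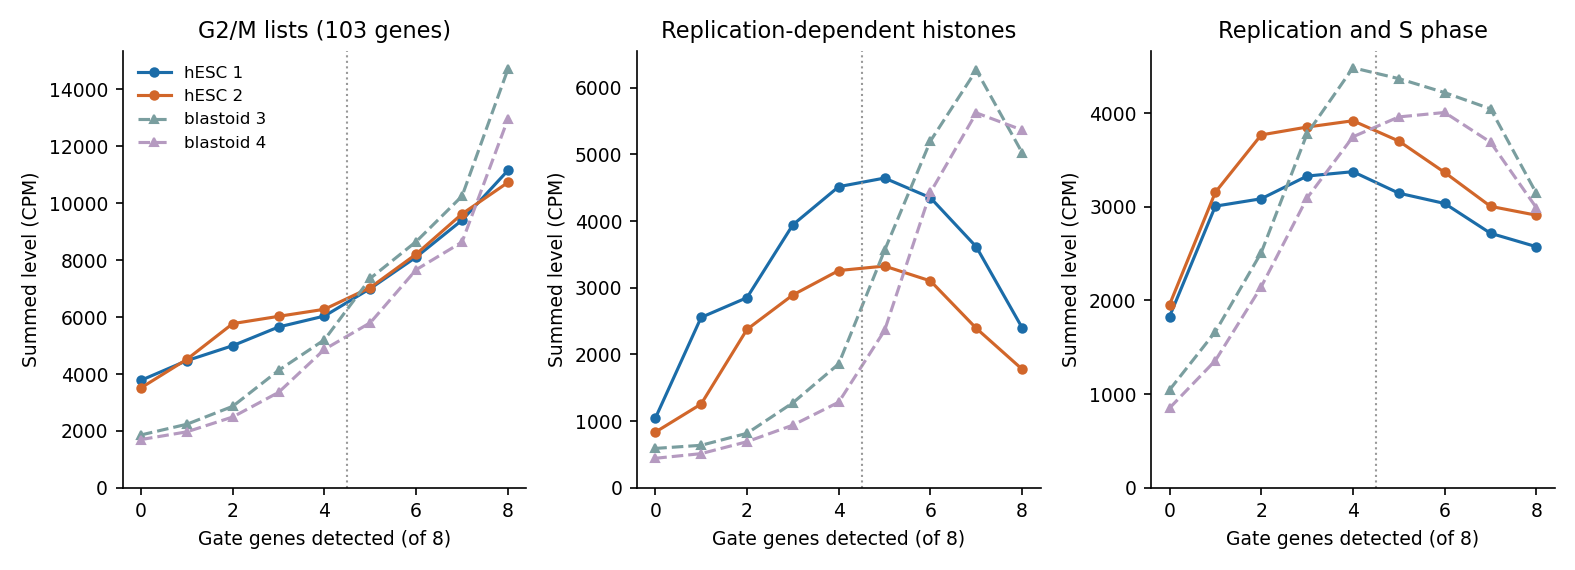
Summed CPM of the 4 G2/M lists (103 genes), of the histone list and of the S phase list by the number of gate genes detected in a cell; solid lines are the 2 hESC samples, dashed lines the 2 blastoid samples, and the dotted line marks the gate. In hESC the G2/M sum went from 3779.4 and 3514.2 CPM at 0 genes to 11154.0 and 10732.3 at 8, while the histone sum was highest near 5.

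POU5F1, the core pluripotency factor, was found in most gated cells. With every cell thinned to 2000 UMIs, it was found in 90.7% of gated cells of hESC 1 and 89.5% of those of hESC 2. Its level and those of other pluripotency genes are set against marker-low cells below. At the same depth CCNB1 was found in 34.3% and 33.8% of gated cells against 14.3% and 16.0% of marker-low cells. DLGAP5, a spindle assembly protein, was found in 41.8% and 39.0% against 6.12% and 10.7%. Of 31 early lineage genes, the markers of other cell types, 16 had no UMI in the 6 class sums described next and 15 had some. Those at 0 included GATA3, TFAP2A and CDX2 of trophoblast, SOX17, GATA4 and GATA6 of endoderm, TBXT and EOMES of the primitive streak, PAX6 of neural cells, COL3A1 and LUM of fibroblasts, and PECAM1 and CDH5 of endothelium. Other markers of the same cell types were present. KRT18, a keratin of simple epithelia, was the most abundant at 506 and 448 CPM in gated and 438 and 403 CPM in marker-low cells. COL1A2, a collagen of fibroblasts, stood at 58.0 and 59.1 CPM in gated and 81.6 and 84.5 CPM in marker-low cells, and COL1A1 at 7.03 and 4.93 against 15.2 and 17.6 CPM. The endothelial receptor KDR stood at 52.7 and 54.2 against 83.5 and 56.3 CPM, and GABRP of amnion at 8.78 and 8.21 against 5.69 and 3.52 CPM. MIXL1 of mesoderm had 1 UMI in each gated sum. The summed level of the list was 889 and 821 CPM in gated cells against 848 and 815 CPM in marker-low cells, and its part in the results was not tested.

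To compare the classes at similar depth, marker-low cells were each paired within their sample with 1 gated cell whose UMI total lay within 10%. Each of these gated cells was then paired in the same way with 1 intermediate cell. This was possible for 125 of 147 marker-low cells in hESC 1 and 143 of 150 in hESC 2, over which UMIs were summed by class. The sums held 591816 and 610099 UMIs for gated cells and 575389 and 593031 for marker-low cells. Of 7110 genes tested with edgeR's quasi-likelihood test, the sample being a block, 104 were higher in gated cells and 134 lower at a Benjamini-Hochberg adjusted p under 0.05. That is 1.46% and 1.88%, together 238 genes or 3.35%. The balance of rises and falls turned with library size alone as the scale (111 higher, 44 lower) and without the sample block (61 higher, 5 lower). Of the 238 genes, 63 rose and 8 fell by at least 1 on the log2 scale. The rises were concentrated in the G2/M lists: 46 of their 87 tested genes rose and none fell (edgeR), the median log2 fold change was 1.08, and 84 of the 87 values were above 0, against a median of -0.0002 and 50.0% above 0 over all genes. Because the lists describe the same biology as the gate genes and both were read in the same cells, these counts describe the gate and are no independent test of it. The 2310 gated cells are represented by the 268 that could be paired, with medians of 4600 and 4386 UMIs, so somewhat deeper than the paired marker-low cells (4422 and 4099).

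The call count depended on the method. DESeq2 called 19 genes, all of them among the 238, of which 11 were G2/M genes (ASPM, AURKA, BUB1, CCNB1, CKS2, DEPDC1, DLGAP5, HMMR, KPNA2, SGO2 and UBE2S). EdgeR without the sample block called 66 in all. Leaving out hESC 1 or hESC 2 left 108 to 111 calls, 22 to 26 of them in the G2/M lists, in a fit that takes the lone hESC sample to vary as the blastoid samples do. When the gate was read at 2000 UMIs and 216 and 266 cells per class were then paired on full depth, 264 of 10800 genes were higher (2.44%) and 379 lower (3.51%), together 5.95%, with 72 of 103 G2/M genes higher, none lower and a median log2 fold change of 0.85.

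**Figure D3:**
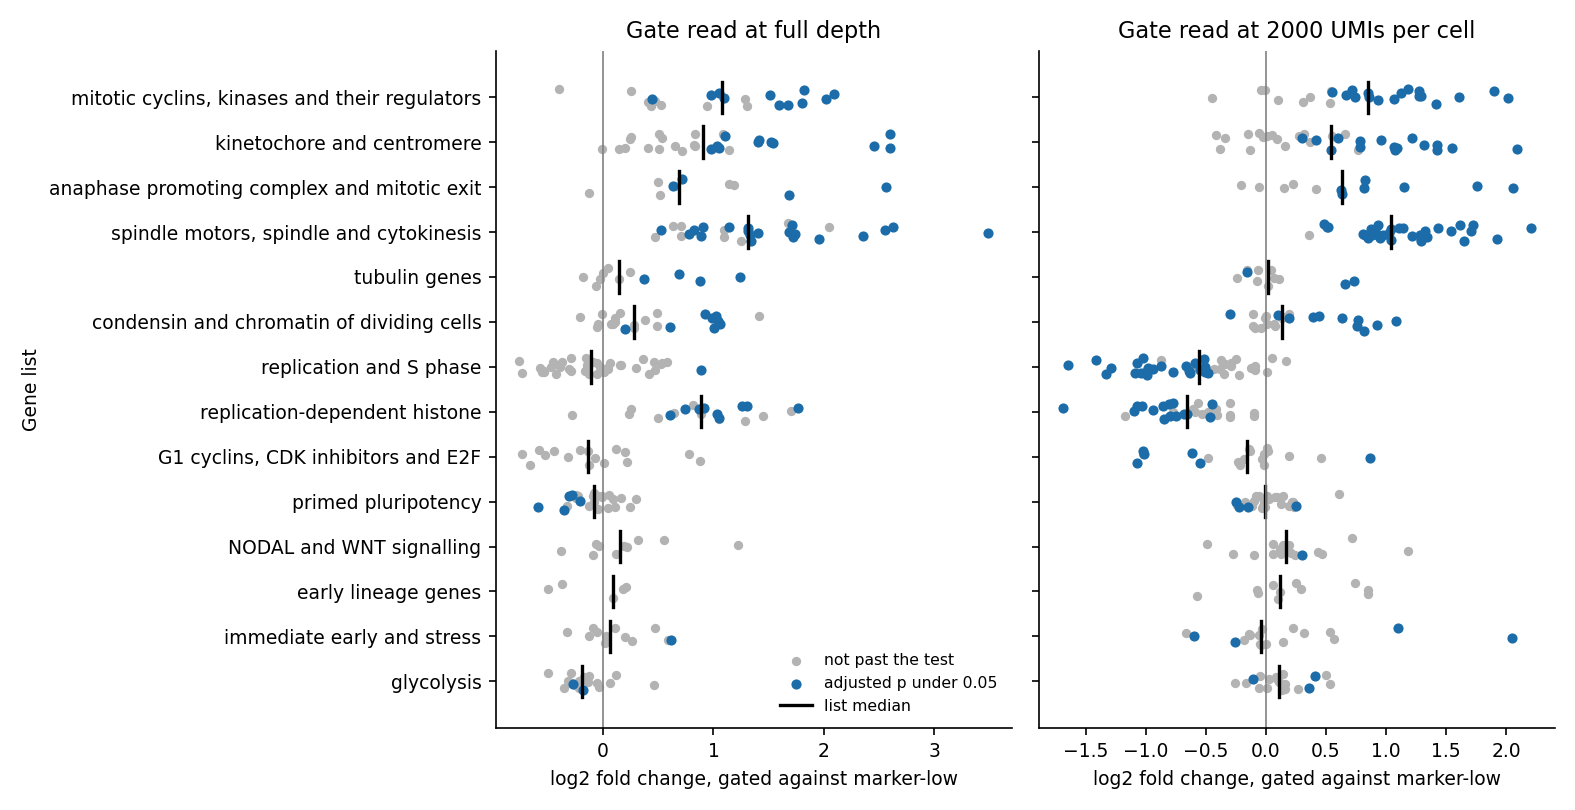
Log2 fold change of gated over marker-low hESC in depth-matched sums for the genes of 14 lists, 1 point per gene tested; blue points passed an edgeR adjusted p under 0.05 and the black bar is the list's median. Left, the gate at full depth; right, the gate read at 2000 UMIs, where the spindle list kept a median near 1.04 and the histone and S phase lists moved to medians of -0.65 and -0.56.

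Promoters of the G2/M genes that rose were searched for the CCAAT box and the CHR element (TTTGAA). At the CHR, late cell-cycle genes are held silent early in the cycle. The windows are the 250 bases before the start site of each gene in RefSeq (GRCh38.p14), searched on both strands, and 42 of the 46 G2/M genes that rose had a window. TTTGAA occurred in 22 of the 42 (52.4%), against 8.13% of 5746 tested genes with a window and 13.6% of all 27305 promoters. CCAAT occurred in 31 (73.8%), against 36.9% and 33.0%, and both occurred in 20 (47.6%), against 3.71% and 4.85%. Of all 104 genes that rose, 79 had a window, with TTTGAA in 40.5%, CCAAT in 60.8% and both in 34.2%. Genes that fell held TTTGAA in 7.21% and CCAAT in 31.5% of their windows, and the S phase list in 5.56% and 66.7%. G2/M genes that did not rise were not compared, so the part of the rise in these shares was not tested. The E2F motif TTTCGCGC was in none of the 42 windows and in 0.922% of those of all genes tested. A match only says that these letters stand in the window. The windows of DEPDC1 (chr1:68497083-68497332, minus strand), CENPA (chr2:26785806-26786055, plus), KIF23 (chr15:69414099-69414348, plus) and DLGAP5 (chr14:55191586-55191835, minus) are printed 5′ to 3′ on the gene's strand because they are the 4 G2/M genes with the largest rise whose window holds TTTGAA. Capitals mark TTTGAA or its complement TTCAAA and CCAAT or its complement ATTGG.
DEPDC1: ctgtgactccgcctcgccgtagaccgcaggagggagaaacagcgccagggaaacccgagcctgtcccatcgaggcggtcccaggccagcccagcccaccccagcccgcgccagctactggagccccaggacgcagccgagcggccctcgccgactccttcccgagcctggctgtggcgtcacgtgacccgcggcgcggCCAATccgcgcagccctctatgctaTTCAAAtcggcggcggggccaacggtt
CENPA: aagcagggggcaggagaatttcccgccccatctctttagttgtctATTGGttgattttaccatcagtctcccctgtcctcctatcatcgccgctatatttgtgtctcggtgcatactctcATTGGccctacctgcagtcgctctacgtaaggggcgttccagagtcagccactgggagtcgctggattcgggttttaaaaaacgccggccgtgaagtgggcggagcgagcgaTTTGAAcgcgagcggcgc
KIF23: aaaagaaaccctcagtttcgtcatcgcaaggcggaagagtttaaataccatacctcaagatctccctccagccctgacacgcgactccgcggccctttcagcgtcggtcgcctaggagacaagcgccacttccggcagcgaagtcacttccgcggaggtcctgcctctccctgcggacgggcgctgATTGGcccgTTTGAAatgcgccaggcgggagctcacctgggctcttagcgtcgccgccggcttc
DLGAP5: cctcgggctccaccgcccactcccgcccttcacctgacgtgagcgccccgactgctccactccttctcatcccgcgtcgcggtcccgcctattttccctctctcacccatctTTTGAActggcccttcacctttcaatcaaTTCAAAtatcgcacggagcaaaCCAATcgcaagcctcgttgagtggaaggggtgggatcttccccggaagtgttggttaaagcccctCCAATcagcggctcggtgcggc

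Among mitotic cyclins, kinases and their regulators, 11 of 20 tested genes rose and none fell (edgeR), with a median log2 fold change of 1.07. Levels from here on are CPM of the depth-matched sums, scaled with edgeR's TMM factors, and fold changes are log2 of gated over marker-low cells. AURKA, the kinase of the spindle poles, was at 104 CPM in gated, 26.9 in intermediate and 20.9 in marker-low cells of hESC 1, and at 100.2, 48.4 and 26.4 CPM in hESC 2. Both gated sums lay above all 4 others, with a log2 fold change of 2.09 (SE 0.27, edgeR adjusted p = 1.77e-07). PLK1, which drives spindle formation and mitotic exit, was at 56.2, 18.0 and 9.49 CPM in hESC 1 and 55.8, 23.4 and 17.6 CPM in hESC 2, a rise of 2.02 (SE 0.37, edgeR adjusted p = 0.00014). AURKB, the kinase of the chromosomal passenger complex, rose by 1.80, from 17.1 and 24.7 CPM to 68.5 and 78.8 CPM, with its intermediate sums between. CCNB1 was at 216, 113 and 58.8 CPM in hESC 1 and 190, 128 and 82.8 CPM in hESC 2 and rose by 1.51 (SE 0.18, edgeR adjusted p = 2.43e-08). Its 6 sums fell in the same order in both samples, gated above intermediate above marker-low. The checkpoint kinases BUB1 and BUB1B, which hold back anaphase until chromosomes are attached, rose by 1.67 and 1.59, and CKS2, a small subunit of cyclin-dependent kinase that was the most abundant of these, rose by 1.10, from 207 and 225 CPM to 515 and 415 CPM. CCNA2 (1.05) and CCNB2 (0.98) rose less steeply, CKS1B rose by 0.45, and FOXM1, the transcription factor that activates many G2/M genes, had a log2 fold change of 0.47 and did not pass (edgeR adjusted p = 0.606).

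Kinetochore and centromere genes rose in 11 of 28 cases, with none lower and a median of 0.91. SGO2, a shugoshin that protects the cohesion of sister centromeres, was at 105 CPM in gated, 44.9 in intermediate and 17.1 in marker-low cells of hESC 1, and at 85.4, 25.0 and 14.1 CPM in hESC 2. The gated sums were again the highest of the 6, and the log2 fold change was 2.60 (SE 0.30, edgeR adjusted p = 1.26e-08). DLGAP5, grouped here with the kinetochore genes, was at 286 CPM in gated, 111 in intermediate and 41.7 in marker-low cells of hESC 1, and at 210, 115 and 47.5 CPM in hESC 2, which was 5.49-fold (log2 fold change 2.46, SE 0.19, edgeR adjusted p = 7.68e-14). Its intermediate sums lay between the others in both samples. CENPA, the histone variant that marks the centromere, had 11 UMIs in gated and 5 in marker-low cells of hESC 1, and 23 and 0 in hESC 2. Its fitted log2 fold change of 2.60 (edgeR adjusted p = 0.00655) rests on these few UMIs, and without hESC 2 it was 1.00 and did not pass (adjusted p = 0.815). NUF2 (1.54) and NDC80 (1.52), parts of the complex that grips spindle microtubules, rose together with the motor CENPE (1.41), and so did CDCA8 (1.42) of the passenger complex. BUB3 and SGO1 rose by 1.05 and 1.10.

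Of the genes of the anaphase promoting complex and mitotic exit, 4 of 10 rose. CDC20, which activates the complex in mitosis, was at 86.1 CPM in gated, 61.1 in intermediate and 22.8 in marker-low cells of hESC 1, and at 96.9, 71.7 and 33.5 CPM in hESC 2. It rose by 1.69 (SE 0.26, edgeR adjusted p = 8.06e-06), and its intermediate cells lay nearer to the gated than to the marker-low cells. CDCA3 rose by 2.56 on few UMIs, 18 against 2 in hESC 1 and 15 against 3 in hESC 2. UBE2S, the enzyme that extends ubiquitin chains on substrates of the complex, rose by 0.72, and PTTG1, the securin destroyed at anaphase, rose by 0.63.

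The list of spindle motors, spindle and cytokinesis genes had the highest median of the lists, 1.31, with 20 of 29 higher and none lower. With the gate read at 2000 UMIs, 32 of its 33 genes were higher. KIF23, a motor of the central spindle in cytokinesis, was at 70.3, 16.2 and 11.4 CPM in hESC 1 and 50.9, 21.7 and 8.8 CPM in hESC 2, and rose by 2.56 (SE 0.39). In both samples the intermediate sum lay between the others. ASPM, a spindle pole protein, was at 256, 137 and 79.7 CPM in hESC 1 and 243, 150.1 and 75.7 CPM in hESC 2, and rose by 1.68 (SE 0.17, edgeR adjusted p = 1.41e-10). HMMR, KIF11 and CEP55 rose by 1.72, 1.72 and 1.74. The cytokinesis genes ANLN, PRC1 and ECT2 rose by 1.40, 1.33 and 0.91. KIF2C, a motor that takes microtubules apart at kinetochores, had 35 UMIs in gated and 4 in marker-low cells of hESC 1, and 28 and 1 in hESC 2. Its fitted log2 fold change of 3.49 (SE 0.51) is therefore uncertain in size.

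Of 11 genes for tubulins, the subunits of the spindle itself, and their regulators, 4 rose, none fell and the median was 0.14. With the gate read at 2000 UMIs, 2 rose (TUBA1C and TUBB4B), 1 fell (STMN1, which takes microtubules apart) and the median was 0.01. TUBB4B was at 126 CPM in gated, 68.3 in intermediate and 49.3 in marker-low cells of hESC 1, and at 174, 135 and 77.5 CPM in hESC 2, and rose by 1.24 (edgeR adjusted p = 1.32e-05). TUBG1 and TUBA1C rose by 0.87 and 0.69, TUBA1B by 0.37, and TUBB at 0.14 did not pass. TUBG1 was at -0.08 on the log2 scale when the gate was read at 2000 UMIs. Tubulin genes are near copies of each other, so reads may have been divided unevenly between them. Of 23 genes for condensin and chromatin of dividing cells, 8 rose and none fell, with a median of 0.28. The condensin subunits SMC4, NCAPG and NCAPD2 rose by 1.04, 1.06 and 1.00, and HMGB2, a chromatin protein abundant in dividing cells, rose by 0.99 from 260 and 194 CPM to 455 and 442 CPM.

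The direction of the histone genes depended on the depth at which the gate was read. With the gate at full depth 9 of 21 histone genes rose, none fell and the median was 0.89. With the gate at 2000 UMIs none of 29 rose, 15 fell and the median was -0.65 (edgeR). HIST1H4C, the most abundant, was at 1883 CPM in gated, 1816 in intermediate and 1309 in marker-low cells of hESC 1, and at 1273, 1281 and 602 CPM in hESC 2, so gated and intermediate sums lay close together and the marker-low sums were the lowest of their sample. It rose by 0.74 (SE 0.07) at full depth and was at -0.45 at 2000 UMIs. HIST1H1D was at 0.60 and -1.03, and HIST1H3G, HIST1H1A, HIST2H2AC, HIST1H1B, HIST1H1C and HIST1H1E, which rose by 0.92 to 1.77 at full depth, were at -0.75, -1.07, -0.47, -0.68, -0.81 and -0.78. Intermediate cells alone, at full depth, also had 6 of 21 histone genes above the marker-low cells. These transcripts mostly lack poly(A) tails, so a protocol that primes on poly(A) counts only a part of them.

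Replication genes, whose transcripts peak around the start of S phase, were compared under the same readings. Of 40 tested at full depth, 1 rose (RAD51AP1, by 0.89), none fell and the median was -0.11, whereas at 2000 UMIs 25 of 44 fell, none rose and the median was -0.56. PCNA, the sliding clamp of DNA polymerase, had log2 fold changes of -0.05 and -0.77 under the 2 readings, and the helicase subunit MCM6 had -0.42 and -1.64. CCNE1, the cyclin of entry into S phase, was at -0.58 without passing and at -1.02. None of 16 tested genes among the G1 cyclins, CDK inhibitors and E2F factors was called at full depth by edgeR or DESeq2, and 2 had an unadjusted p under 0.05. At 2000 UMIs 5 of 20 fell (CCNE1, CDKN1A, E2F1, MYBL2 and MDM2), 1 rose (CDKN1B, an inhibitor of cyclin-dependent kinases, by 0.86) and the median was -0.16. CCND1 was at 0.01, and CDKN1A, another such inhibitor, was at -0.66 (edgeR adjusted p = 0.258), with -1.07 at 2000 UMIs. Why the 2 readings of the gate differ was not tested, and the classes they compare differ in make-up: at 2000 UMIs the low class held 588 and 582 cells against 147 and 150.

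Pluripotency genes were lower in gated cells in 5 of 24 cases, against 1.88% of all genes tested, with falls of 0.59 or less on the log2 scale, none higher and a median of -0.08. At 2000 UMIs 3 of 27 fell (TERF1, CD24 and ESRG), 1 rose (SOX2, by 0.25, edgeR adjusted p = 0.0063) and the median was -0.01. POU5F1 was at 1209 CPM in gated, 1259 in intermediate and 1444 in marker-low cells of hESC 1, and at 1118, 1214 and 1248 CPM in hESC 2. Its log2 fold change of -0.21 (SE 0.06, edgeR adjusted p = 0.0366) passed narrowly. It did not pass without the block (adjusted p = 0.674), with library size alone as the scale (0.294), or without either hESC sample, and it was at -0.06 with the gate at 2000 UMIs. ESRG, a transcript known from primed pluripotent cells, was at 321, 386 and 480.0 CPM in hESC 1 and 317, 395 and 479 CPM in hESC 2 and fell by 0.59 (edgeR adjusted p = 7.27e-05), and both gated sums lay below the other 4. CD24, UGP2 and TERF1 fell by 0.35, 0.31 and 0.28. NANOG (0.05), SOX2 (-0.01), LIN28A (-0.01) and DPPA4 (-0.04) did not pass with the gate at full depth. None of 10 NODAL and WNT genes and none of 5 early lineage genes tested was called by edgeR or DESeq2, and 3 and 1 had an unadjusted p under 0.05. Among 12 immediate early and stress genes 1 rose, the chaperone gene HSPH1, which was at -0.19 with the gate at 2000 UMIs. Among 19 glycolysis genes 2 fell, GAPDH by 0.18 and ENO1 by 0.27, and these were at 0.03 and 0.11 at 2000 UMIs.

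The 12 largest rises among genes with a mean of at least 5 log2 CPM, which could come from any list or none, were led by genes of mitosis. DEPDC1, a gene of mitotic progression, was at 79.05 CPM in gated, 23.4 in intermediate and 20.9 in marker-low cells of hESC 1, and at 91.95, 25.0 and 7.04 CPM in hESC 2, with a log2 fold change of 2.63 (SE 0.33, edgeR adjusted p = 8.57e-08). SGO2, KIF23, DLGAP5, AURKA and PLK1 followed, and then TACC3 (1.96), CDCA2 (1.88), ARHGAP19 (1.84), GTSE1 (1.82), the helicase PIF1 (1.81) and AURKB. In each of the 12 both gated sums exceeded the 4 other sums. The choice fixed this in part, since a gene needed the same direction against marker-low cells in both hESC samples. All 12 passed in 10 of the 14 other settings run. The exceptions were DESeq2 (4 passed), the gated and marker-low sums fitted alone (11), and the fits without hESC 1 (7) or hESC 2 (8), and none changed direction.

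The 10 largest falls were smaller and less stable. MIR205HG, the host transcript of a microRNA, was at 211 CPM in gated, 289 in intermediate and 459 in marker-low cells of hESC 1, and at 218, 239 and 403 CPM in hESC 2, and fell by 1.00 (SE 0.12, edgeR adjusted p = 1.26e-08). It was the only one of the 10 that passed with DESeq2. BTG2, which restrains proliferation, was at 24.6, 32.3 and 39.8 CPM in hESC 1 and 13.1, 21.7 and 49.3 CPM in hESC 2, and fell by 1.25 (SE 0.36, edgeR adjusted p = 0.0379). KLHL4, PTAR1, COPZ1, TRIP6, SND1, TTC1, MYL6B and ATIC fell by 1.15, 1.12, 0.91, 0.88, 0.74, 0.72, 0.65 and 0.62. Of the 10, 3 also passed with the gate read at 2000 UMIs, 1 passed without hESC 1 and 1 without hESC 2, and TTC1 was at 0.02 at 2000 UMIs.

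**Figure D4:**
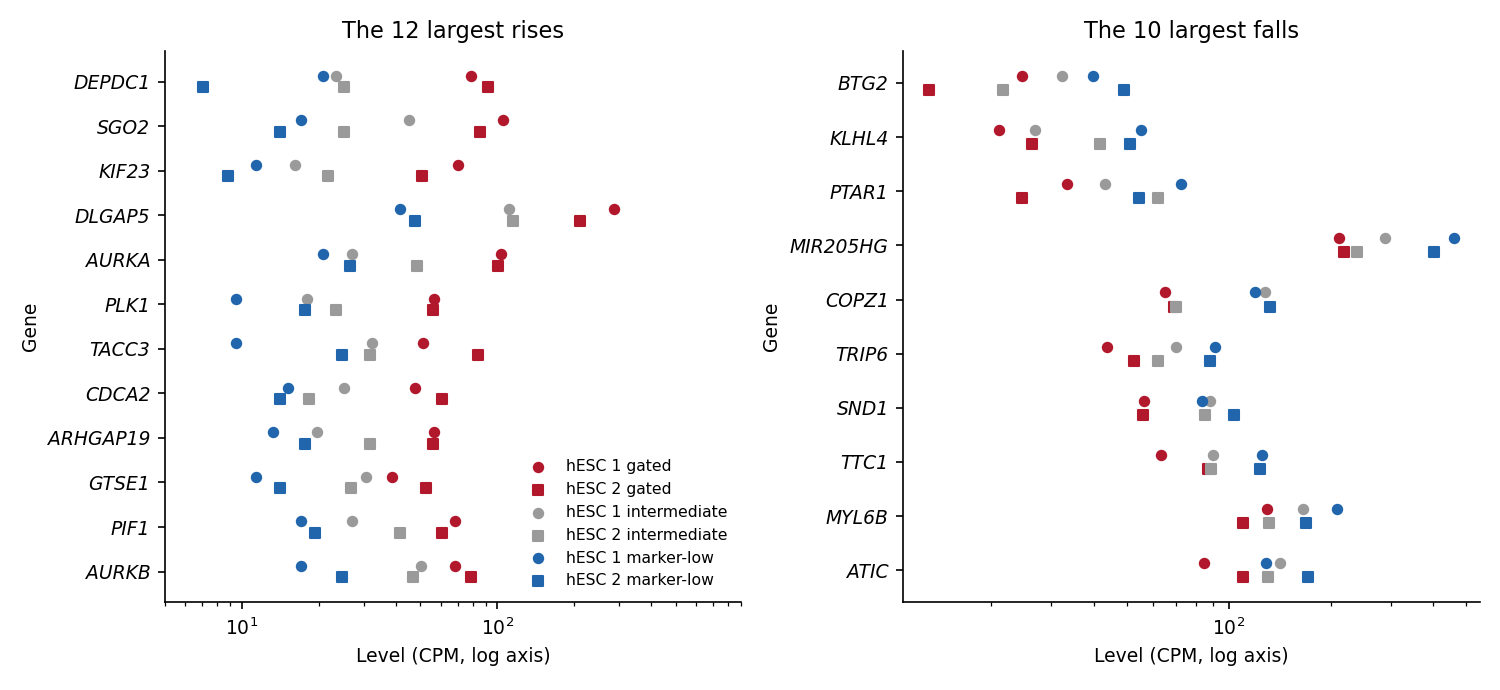
CPM (log axis) of the 12 largest rises and the 10 largest falls in the 6 depth-matched sums; circles are hESC 1, squares hESC 2, red gated, grey intermediate and blue marker-low cells. For each rise the 2 red points lie to the right of all others, as for DLGAP5 at 286 and 210 CPM, while the falls are smaller, as for ATIC at 84.3 and 110.0 CPM in gated and 129 and 171 CPM in marker-low cells.

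Against intermediate cells of the same depth the gated cells differed in fewer genes. Of 7110 genes, 26 were higher (0.366%) and 6 lower (0.0844%), and 19 of the 26 were among the 87 tested G2/M genes, whose median log2 fold change was 0.52. DEPDC1 (1.81), KIF23 (1.65), PRC1 (1.53) and CDCA8 (1.49) were raised most among those named, and AURKA (1.42), PLK1 (1.42), BUB1 (1.26), DLGAP5 (1.12) and CCNB1 (0.74) also passed (edgeR). None of the histone, replication, pluripotency or glycolysis genes passed here with edgeR, where 4 of 21, 10 of 40, 5 of 24 and 2 of 19 had an unadjusted p under 0.05. Intermediate cells in turn had 21 genes above the marker-low cells (0.295%) and 40 below (0.563%), together 0.858%, and 5 of the G2/M genes were among the 21. The 32 calls were few in number when a sample was left out (1 to 3) or the block was removed (9).

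The same gate was also read in blastoids, where the depth-matched sums were larger (2611596 and 3963571 UMIs in gated cells against 591816 and 610099 in hESC), so that the numbers of called genes cannot be set against each other. The paired cells were also deeper in blastoids, with medians of 6094 and 8749.5 UMIs in gated and 5569.5 and 7992 in marker-low cells. In hESC these medians were 4600 and 4386, and 4422 and 4099. A marker-low blastoid cell thus had at most 1 gate gene among more UMIs, and the part of depth in the differences below was not tested. Gated blastoid cells differed from depth-matched marker-low blastoid cells in 3905 of 12242 genes, 1814 higher (14.8%) and 2091 lower (17.1%), and 98 of 103 G2/M genes were higher, with a median log2 fold change of 3.43. The fold change of the gate was smaller in hESC than in blastoids for 71 of the 103 genes and larger for none (edgeR interaction test, 12242 genes tested, 6.15% called, 4.29% lower in hESC and 1.86% higher), with a median difference of -2.29. The CPM given for hESC were scaled with factors from the hESC sums alone, those for blastoids with factors from all 4 samples. Levels of the hESC and blastoid sums are thus on scales that may differ. The total levels in gated cells lay close together, with G2/M sums of 9026 and 8588 CPM in hESC and 9895 and 9182 CPM in blastoids. Within these totals the lists differed. The spindle list stood at 2444 and 2649 CPM in gated hESC against 3705 and 3307 CPM in gated blastoid cells. The list of mitotic cyclins and kinases was slightly higher in gated hESC, at 2294 and 2075 CPM against 2100 and 1885 CPM. The G2/M totals in marker-low cells lay further apart, at 4770 and 4465 CPM in hESC against 1961 and 1878 CPM in blastoids. Replication genes showed the same, with 43 of 44 higher in gated blastoid cells and 40 of 44 different between the systems. The marker-low blastoid cells also carried early lineage genes at 7173 and 7957 CPM against 848 and 815 CPM in hESC, so the 2 marker-low classes are not cells of 1 kind, and the part of cell type in the difference was not tested. In blastoid sample 4, 1035 of 1904 eligible cells had a barcode shared with blastoid sample 3.

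**Figure D5:**
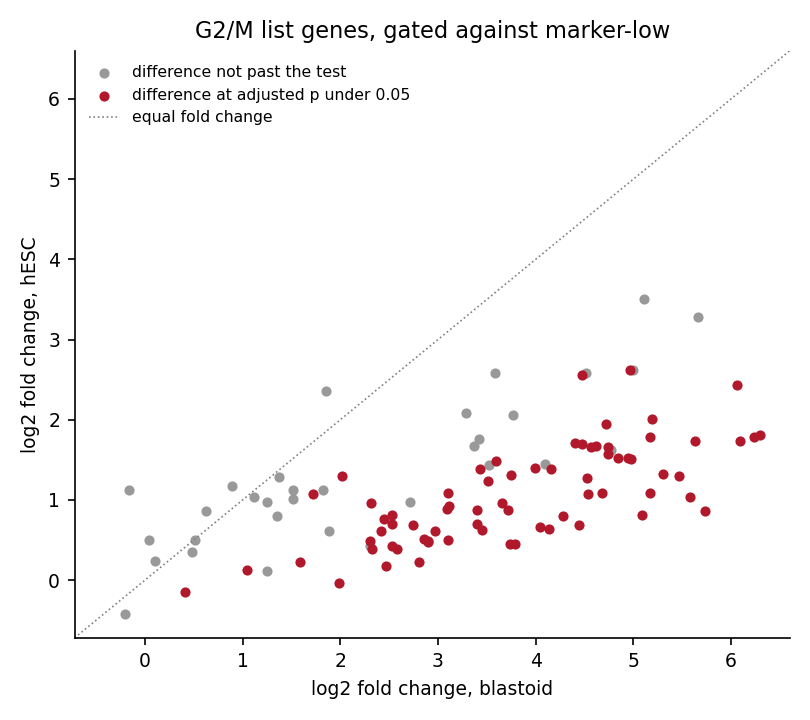
Log2 fold change of gated over marker-low cells for the 103 G2/M genes, blastoids on the x axis and hESC on the y axis, with the line of equal change dotted; red points differed between hESC and blastoids at an edgeR adjusted p under 0.05. Of the 103 differences 6 were above 0, and the 71 red points are all smaller in hESC.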

How the data were processed

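Single cells were profiled with the 10x Chromium 3′ chemistry, which counts UMIs. The authors deposited raw UMI counts per gene and barcode, made with Cell Ranger on GRCh38 per the submitters' processing notes; versions are not given in the sources used here. The values are counts, whole numbers that were not normalized. The most genes in a barcode were 4982 to 4994 in each table, and no doublet removal is stated. Scrublet (in scanpy 1.11.5, Python 3.11.15, numpy 2.4.6, scipy 1.17.1; expected doublet rate 6%) ran on barcodes with 500 or more genes, marked under 0.5% of hESC barcodes and was not used to remove cells.

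Cells needed 2000 UMIs and 2% mitochondrial UMIs. Gated cells were paired 1 to 1 with marker-low cells within a sample on UMI total (within 10%), and intermediate cells with those gated cells. UMIs were summed per sample and class. Cells are not replicates: the 6 hESC sums were fitted together with edgeR 4.0.16 (limma 3.58.1, R 4.3.3), with TMM factors, filterByExpr, a quasi-likelihood test and the sample as a block, since the classes of a sample share its library. P-values were adjusted by Benjamini-Hochberg over all genes tested. For the comparison with blastoids and for leaving out a sample, all 4 samples were fitted jointly. The test was run on simulated counts with no difference between the samples and the same dispersion for every gene. That run does not show how the test behaves on the spread of these data. DESeq2 1.42.0 without independent filtering was an alternative. So were library size as the scale, no filter, no pairing on depth and the gate read after thinning to 2000 UMIs. Other gate numbers were tried for the gated share and the depth ratio only. Exact binomial intervals cover counting error only.

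Genes were named by rule. The 12 largest rises and 10 largest falls needed an edgeR adjusted p under 0.05 and a mean log2 CPM of at least 5. They also needed the same direction in both hESC samples. Up to 6 called genes of each list, its core members, and the 5 largest differences from blastoids within the lists were named too. Further listed genes were picked after their values were seen. The members and lists were chosen with earlier results of these data known. Not every listed gene is reported here.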

Additional observations from a re-analysis of the deposited data

Results flagged for a closer look

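The rise from marker-low to gated cells differed between hESC and blastoids by an interaction test in edgeR for 5 named genes, all smaller in hESC. For CCNE2, a cyclin of entry into S phase, the difference was -8.2 on the log2 scale (adjusted p = 0.00952). It had 0 and 0 UMIs in gated and 4 and 1 in marker-low hESC, and 36 and 27 against 8 and 6 in blastoids, so the fitted size depends on the prior count and is no bound. For ESPL1, the separase that parts sister chromatids, it was -4.88 (adjusted p = 0.00754), with 8 and 4 UMIs in gated and 3 and 3 in marker-low hESC and 30 and 51 against 0 and 1 in blastoids. CCNA2 differed by -4.54 (adjusted p = 7.33e-10): marker-low cells held 36.0 and 40.5 CPM in hESC and 3.76 and 0.53 CPM in blastoids, while gated cells held 70.3 and 88.7 CPM and 89.8 and 95.4 CPM. GTSE1, a G2 regulator of p53, differed by -4.49 (adjusted p = 1.35e-06), with 11.4 and 14.1 CPM in marker-low hESC and 1.5 and 1.07 CPM in marker-low blastoid cells. PBK, a mitotic kinase, differed by -4.45 (adjusted p = 0.00427), with 8.78 and 23.0 CPM in gated hESC and 180 and 83.3 CPM in gated blastoid cells. Marker-low blastoid cells are of several cell types and were deeper than those of hESC, and the part of either in the differences was not tested. The hESC and blastoid CPM given here were scaled with separate sets of TMM factors.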

How the results depend on the processing

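Against the 238 genes that separated gated from marker-low hESC, DESeq2 called 19, the gated and marker-low sums alone 87, library size as the scale 155 (71.6% of them higher, against 43.7%), no filter on low counts 112, no pairing on depth 709, the gate at 2000 UMIs 643, and a log2 fold change of at least 1 left 71. With no replicate block the count was 66 (61 higher, 5 lower), and leaving out a sample gave 108 to 111. For the 46 G2/M genes that rose, DESeq2 gave 11, the sums alone 24, no filter 29, no pairing on depth 72, the gate at 2000 UMIs 72 and leaving out a sample 22 to 26, while no replicate block gave 40. The 32 calls against intermediate cells became 9 with no replicate block, 821 with no pairing on depth and 1 to 3 without a sample. The 753 differences from blastoids became 1405 with no pairing on depth, 1693 with the gate at 2000 UMIs and 382 to 694 without a sample. The gated share was 14.0% and 15.3% with the gate at 2000 UMIs, 69.3% and 72.9% at 4 or more genes, 42.7% and 45.6% at 6 or more, and 29.3% in hESC 2 without shared barcodes. The depth ratio was 1.51 and 1.50, 1.78 and 1.73, 2.05 and 1.96, and 1.23 in the same settings. Fits without shared barcodes (205 genes), without the smaller copy of each shared barcode (206, chosen after seeing the data), without the marked doublets (176) and with no mitochondrial minimum (258) stayed within 1.5 times of 238. Over 65 named genes and 910 comparisons, 618 kept their call, 278 lost it, 2 gained it and 12 changed direction with a call in either fit. A change of sign in a gene called in neither fit was counted as kept. All 12 did so with the gate at 2000 UMIs: TTC1 0.018, TUBG1 -0.076, HIST1H3G -0.75, HIST1H1A -1.07, HIST2H2AC -0.47, HIST1H1B -0.68, HIST1H1C -0.81, HIST1H1E -0.78, HSPH1 -0.19, ENO1 0.11, GAPDH 0.026 and SOX2 0.25. The cause was not tested. The paired sums held 575389 to 610099 UMIs, so 7110 genes had enough UMIs to be tested.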

Other observations

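Ribosomal protein genes made up 66 of the 134 genes that were lower in gated than in marker-low hESC, where 1.88% of all 7110 genes were lower. The group was picked after the values were seen, by symbol, and holds 77 tested genes, all with a negative log2 fold change and a median of -0.20. Ribosomal protein transcripts took 23.9% of UMIs in gated, 25.0% in intermediate and 26.1% in marker-low sums of hESC 1, and 22.2%, 22.7% and 24.4% in hESC 2. The calls depended on the fit: with no replicate block and with DESeq2 none of the 77 passed. With library size as the scale 20 passed (median -0.13), where 44 of all 7110 genes were lower. With the gate at 2000 UMIs 30 passed (median -0.08), where 3.51% of all genes were lower. Against intermediate cells none passed, with a median of -0.08. In blastoids 57 of 77 were lower in gated cells, with a median of -0.14, where 17.1% of all genes were lower.

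DESeq2 called 6 falls, of which MIR205HG is described above, and the other 5, picked here after their values were seen, were not ribosomal protein genes. MIR302CHG, the host transcript of a microRNA cluster known from pluripotent cells, fell by 0.51 (SE 0.07, edgeR adjusted p = 1.91e-06) and was at -0.47 with the gate read at 2000 UMIs. EEF1A1, a translation elongation factor, and NACA, a chaperone of nascent chains, fell by 0.28 and 0.33 and were at -0.01 and -0.15 with the gate at 2000 UMIs. TMSB4X, which binds actin monomers, and FTL, a ferritin subunit, fell by 0.33 and 0.31 and were at -0.19 and -0.13. With the gate read at 2000 UMIs, the size of the fall was thus nearly kept for MIR302CHG and smaller for the other 4.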
